A study of Mus musculus with 6 samples.

Results

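The integrin beta subunit genes *Itgb1* to *Itgb8* were followed through exposure of mouse mammary epithelial cells to TGFβ1 and its removal. The members were taken by gene symbol, and all 8 were found among the 17428 genes of the expression table. RNA was sequenced from EpH4, a near-normal, non-cancer mouse mammary epithelial cell line that had not been genetically manipulated. E cells were untreated, M cells had received TGFβ1 for 7 days, and RE cells had received TGFβ1 for 7 days followed by 4 days in medium without it. The medium of all groups contained fetal bovine serum and recombinant human insulin, and 2 biological replicates were sequenced per stage, 6 libraries in all. All results come from 1 cell line, so that they describe this line only.

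Integrins are receptors built of 1 alpha and 1 beta subunit that span the plasma membrane, bind matrix proteins or counter-receptors outside the cell and connect to the cytoskeleton inside it. The beta subunit largely sets the class of receptor. Integrin β1 pairs with the widest range of alpha subunits and serves collagen, laminin and fibronectin receptors, while β3, β5, β6 and β8 pair with αv. Integrin β4 pairs with α6 in hemidesmosomes, which anchor epithelial cells to laminin, and β2 and β7 are best known from leukocytes. The αvβ6 and αvβ8 receptors also bind the latent form of TGFβ and help to activate it, which connects the family to the factor that was added and removed in this study.

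The cytoplasmic tails of most beta subunits carry NPxY or NPxF motifs, the docking sites of talin and kindlins, which link integrins to actin. The coding ends of the 6 members called in at least 1 comparison are given to show how they differ in this part of the protein. The last 150 bases before the stop codon are written 5′ to 3′ from the GENCODE M21 mouse transcripts, with in-frame codons of an NPxY or NPxF motif in capitals.
Itgb1: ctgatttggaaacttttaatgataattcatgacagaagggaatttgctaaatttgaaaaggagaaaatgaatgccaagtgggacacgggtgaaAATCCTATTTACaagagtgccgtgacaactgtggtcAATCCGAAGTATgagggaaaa
Itgb2: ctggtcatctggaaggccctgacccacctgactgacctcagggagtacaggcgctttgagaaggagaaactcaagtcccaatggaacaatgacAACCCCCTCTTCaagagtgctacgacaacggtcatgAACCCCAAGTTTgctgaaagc
Itgb3: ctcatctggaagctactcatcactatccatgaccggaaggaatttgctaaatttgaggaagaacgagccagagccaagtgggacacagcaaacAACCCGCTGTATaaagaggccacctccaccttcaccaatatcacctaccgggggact
Itgb5: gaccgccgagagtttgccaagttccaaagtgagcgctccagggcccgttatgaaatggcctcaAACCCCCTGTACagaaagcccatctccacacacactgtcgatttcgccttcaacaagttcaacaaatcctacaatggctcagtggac
Itgb6: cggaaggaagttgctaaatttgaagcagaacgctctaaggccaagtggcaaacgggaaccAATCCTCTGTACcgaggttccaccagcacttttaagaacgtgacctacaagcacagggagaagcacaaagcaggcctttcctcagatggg
Itgb8: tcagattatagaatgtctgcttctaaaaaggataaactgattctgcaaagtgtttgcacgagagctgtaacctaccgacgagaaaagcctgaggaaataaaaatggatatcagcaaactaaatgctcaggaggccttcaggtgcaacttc
*Itgb1* held 2 NPxY motifs in its last 60 codons, *Itgb2* held 2 NPxF motifs, *Itgb3*, *Itgb5* and *Itgb6* held 1 NPxY motif each and *Itgb8* held 0 of either kind. Of the remaining genes, *Itgb7* held 1 of each kind, and *Itgb4*, whose reading frame of 1802 codons is the longest of the family, held 0. Thus, 6 of the 8 genes held a motif in this window and 2 did not, against 0.896% of the coding ends of 21417 mouse genes searched in the same way. Codons before the last 60 were not searched, so that the 0 of *Itgb4* describes only the end of its long frame. The search read 1 transcript per gene on the coding strand, and a match describes the letters, not binding. It required a proline codon after that of asparagine, so that similar sites with another residue there were not counted. The printed ends of *Itgb3*, *Itgb5* and *Itgb6* each hold such in-frame codons after the capitals (aatatcacctac, aacaaatcctac and aacgtgacctac). The counts therefore do not show that these tails lack a further docking site.

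The values are coverage, that is, sequenced bases summed per gene, which were scaled to the library total (ppm) after TMM normalization, a scaling that assumes most genes do not change. The libraries held the equivalent of 35782513 to 47928557 reads of 50 bases, and a floor of 3 reads' worth corresponded to between 0.0635 and 0.0781 ppm. The replicates of the E cells were less alike than the others, with an SD of the log2 difference between libraries of 0.56 over all genes tested, compared with 0.32 for the M cells and 0.31 for the RE cells. Of the 9 epithelial markers looked for, 8 were in the table, and their summed coverage was 2870 to 3126 ppm in E cells, 3445 to 3568 ppm in M cells and 1487 to 1609 ppm in RE cells. Of the 7 tested, 4 were called between M and RE cells (*Krt7*, *Krt8* and *Krt14* lower in RE cells, *Trp63* higher). Between E and M cells 1 was called, and between E and RE cells 3 were. The called shares were 57.1% (M vs. RE), 14.3% (E vs. M) and 42.9% (E vs. RE), beside 12.9%, 17.0% and 9.37% of all genes tested. The part of these markers in the changes of the beta subunits was not tested. Both luminal and basal markers were present, with *Krt8* at 122 to 323 ppm, *Krt18* at 270.1 to 880 ppm, *Krt7* at 328 to 1586 ppm, *Krt14* at 223 to 755 ppm and *Trp63* at 44.7 to 173 ppm. *Cdh1*, which encodes E-cadherin, stood between 244 and 327 ppm, while *Krt5* and *Krt19* did not exceed 0.478 ppm. With library totals in place of TMM, the median over all genes tested shifted on the log2 scale to −0.29 (E vs. M), 0.18 (M vs. RE) and −0.08 (E vs. RE). Higher genes then made up 30.5% of the E vs. M calls, compared with 50.6% under TMM, and 73.8% of the M vs. RE calls, compared with 62.8%.

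The first question was which beta subunits these epithelial cells expressed. Levels of different genes were set side by side per kb of exon, because coverage grows with transcript length. In E cells, *Itgb1* stood highest at 213 ± 11.0 ppm per kb (SD, n = 2). *Itgb5*, with 97.9 and 92.1 ppm per kb, and *Itgb4*, with 82.2 and 106 ppm per kb, followed and did not differ beyond their spread. The leukocyte-type subunit *Itgb2* was lower at 14.3 ± 0.732 ppm per kb. *Itgb6* at 2.72 ± 1.08 ppm per kb, *Itgb7* at 0.611 ± 0.0454 ppm per kb and *Itgb8* at 0.241 ± 0.117 ppm per kb were lower still, and *Itgb3* was under the floor. A family dominated by *Itgb1*, *Itgb5* and *Itgb4* was therefore measured before treatment.

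*Itgb1* also stood highest per kb in M and RE cells, while genes at the low end changed places. In M cells, *Itgb1* stood at 628 ± 29.0, *Itgb5* at 215 ± 13.4 and *Itgb4* at 133 ± 13.4 ppm per kb (SD, n = 2). *Itgb2* at 5.23 ± 1.72 and *Itgb6* at 4.91 ± 0.542 ppm per kb did not differ beyond their spread there, and *Itgb3* reached 1.93 ± 0.158 ppm per kb, above *Itgb7* and *Itgb8*. In RE cells, *Itgb1* stood at 288 ± 4.91, *Itgb5* at 188 ± 12.3 and *Itgb4* at 98.6 ± 0.922 ppm per kb. *Itgb8* at 1.87 ± 0.682 and *Itgb6* at 1.43 ± 0.108 ppm per kb overlapped in RE cells, so that *Itgb8* had moved from the lower end of the family to the level of *Itgb6*.

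The makeup of the family was described as the share of each gene in the summed beta coverage per kb, which does not depend on the scaling between libraries. *Itgb1* took 50.7% ± 0.327 in E cells, 63.4% ± 1.02 in M cells and 49.6% ± 0.572 in RE cells (SD, n = 2). Its share was higher in both M libraries than in any other library, and the E and RE shares lay close together. *Itgb5* took 24.3% and 21.1% in E cells, 22.2% and 21.2% in M cells and 33.1% and 31.4% in RE cells, so that its share was highest in RE cells. *Itgb4* took 20.4% and 24.3% in E cells, 12.3% and 14.8% in M cells and 16.5% and 17.4% in RE cells. The share of *Itgb2* was 3.42% ± 0.373 in E cells, 0.527% ± 0.158 in M cells and 0.457% ± 0.0344 in RE cells (SD, n = 2). The summed coverage of all 8 genes was 420.4 ± 24.4 ppm per kb in E cells, 990 ± 29.9 ppm per kb in M cells and 581 ± 16.6 ppm per kb in RE cells. Without division by length, *Itgb1* took 45.3%, 59.3% and 45.8% on average in E, M and RE cells. These shares were not tested.

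**Figure D1:**
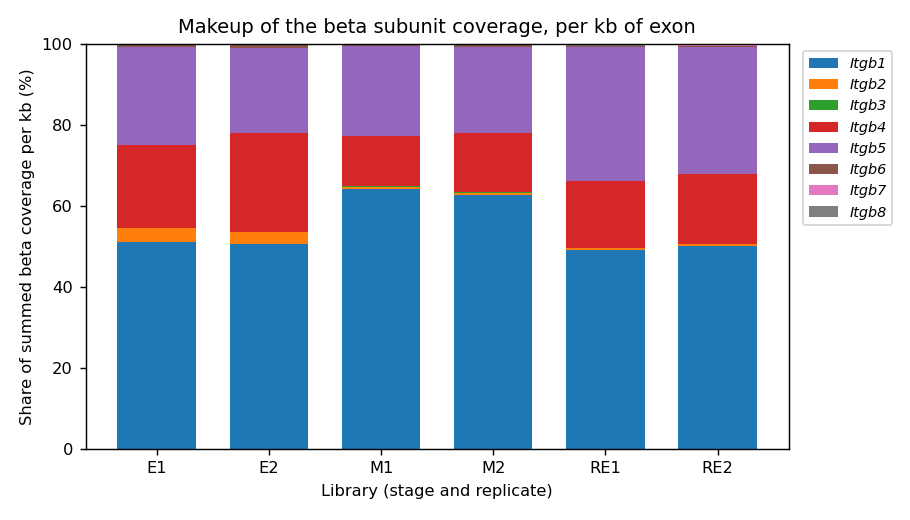
Share of each integrin beta subunit gene in the summed beta coverage per kb of exon (%, vertical axis) for each of the 6 libraries (horizontal axis), with 1 colour per gene. The *Itgb1* band is widest in both M libraries, at 64.1% and 62.7%, and the *Itgb5* band in both RE libraries, at 33.1% and 31.4%.

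Changes between stages were tested with limma across all 13893 genes with enough coverage, and a gene was called when its fold change exceeded 2 either way (1 on the log2 scale) with a Benjamini-Hochberg adjusted p under 0.01. All 8 genes entered the test, *Itgb3* solely through its M libraries, so that the filter itself fixed its direction and its calls are no evidence of a change. From E to M cells, 4 of the 8 were called against 17.0% of all genes tested. Of these, *Itgb1*, *Itgb3* and *Itgb5* were higher in M cells, against 8.58% of all genes, and *Itgb2* was lower, against 8.39%. In M vs. RE, 4 of the 8 were called against 12.9% of all genes, with *Itgb8* higher in RE cells (8.08% of all genes) and *Itgb1*, *Itgb3* and *Itgb6* lower (4.79%). In E vs. RE, 2 of the 8 were called against 9.37% of all genes, with *Itgb8* higher in RE cells (6.20%) and *Itgb2* lower (3.17%). Without *Itgb3*, 3 of 7 were called in E vs. M (2 higher, 1 lower), 3 of 7 in M vs. RE (1 higher, 2 lower) and 2 of 7 in E vs. RE. The median log2 fold change of these 7 was 0.51 (E vs. M), −0.43 (M vs. RE) and 0.24 (E vs. RE), beside 0.00, −0.02 and 0.01 over all genes tested. The comparisons share libraries and are not independent of each other. In these bulk libraries, a change in the number of cells that express a gene and a change in RNA per cell cannot be told apart.

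**Figure D2:**
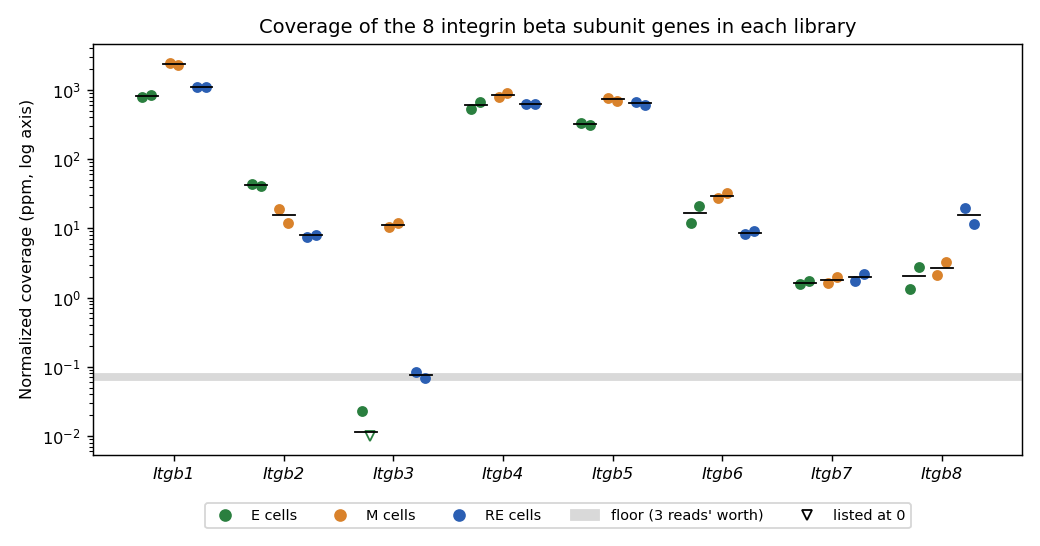
Normalized coverage (ppm, log axis) of each integrin beta subunit gene in the E, M and RE libraries, with 1 point per library, a bar at the mean of each pair and an open triangle, set at the bottom of the axis, where a gene was listed at 0. *Itgb3* stands at 10.5 and 11.8 ppm in the M libraries and at or near the floor (grey band) elsewhere, and *Itgb8* stands at 19.8 and 11.7 ppm in the RE libraries.

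*Itgb3*, among the members that bind αv, was measured almost wholly in M cells. The gene, whose product forms the vitronectin receptor αvβ3 and, with αIIb, the platelet fibrinogen receptor, measured 0.0231 and 0 ppm in E cells, 10.5 and 11.8 ppm in M cells and 0.0838 and 0.0678 ppm in RE cells. In sequenced bases this was 50 and 0 in E cells, 21885 and 24279 in M cells and 198 and 149 in RE cells. Expression was thus detected well above the floor in both M libraries and lay at or near it in the others. The E cells held 1 read's worth in all, the M cells 923 and the RE cells 7. The E and RE cells were too near the floor to be compared with each other at this depth. These values describe the libraries, and no test is given for *Itgb3*, since its direction was fixed by the filter and its fitted change by the pseudocount.

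*Itgb5*, the partner of αv in a second vitronectin receptor, measured 332 and 312 ppm in E cells, 762 and 698 ppm in M cells and 665 and 607 ppm in RE cells. Both M and RE libraries lay above both E libraries, and the M libraries lay just above the RE libraries. *Itgb5* rose 2.26-fold in E vs. M (log2 fold change 1.18 ± 0.14 SE, limma adjusted p = 0.000571). In M vs. RE the log2 fold change was −0.20 (95% interval −0.52 to 0.12, limma adjusted p = 0.311), and it was 0.0065 with library totals. In E vs. RE it was 0.98 (95% interval 0.66 to 1.30, limma adjusted p = 0.0027), just short of the fold required for a call, and it was called at a fold change of 1.5. The E vs. M call was lost with library totals (0.88, against an all-gene median of −0.29) and without the first M library (limma adjusted p = 0.0127).

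*Itgb6*, the epithelial partner of αv in a receptor that activates latent TGFβ, measured 11.9 and 21.1 ppm in E cells, 27.4 and 32.1 ppm in M cells and 8.21 and 9.13 ppm in RE cells. The M libraries were the highest and the RE libraries the lowest, without overlap. *Itgb6* fell by 1.76 ± 0.26 (SE) on the log2 scale in M vs. RE, a level 3.40-fold lower (limma adjusted p = 0.00227). Its E libraries were the least alike of its pairs, and neither E vs. M (log2 fold change 0.90, 95% interval 0.29 to 1.52, limma adjusted p = 0.0291) nor E vs. RE (−0.86, −1.48 to −0.24, limma adjusted p = 0.0443) was called. Without the first E library E vs. RE was called at −1.28, and without the second E library E vs. M was called at 1.29.

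*Itgb8* forms the other latent TGFβ receptor with αv. It measured 1.33 and 2.72 ppm in E cells, 2.10 and 3.30 ppm in M cells and 19.8 and 11.7 ppm in RE cells. The E and M libraries overlapped, and both RE libraries lay above them. *Itgb8* rose in RE cells, by 2.49 ± 0.40 (SE) on the log2 scale compared with M cells (5.61-fold, limma adjusted p = 0.0031) and by 2.93 ± 0.40 compared with E cells (7.62-fold, limma adjusted p = 0.00241). In E vs. M the log2 fold change was 0.44 (95% interval −0.49 to 1.37, limma adjusted p = 0.405), and it was −0.046 without the first E library. Without the first RE library, which was the higher, the limma adjusted p was 0.0381 (M vs. RE) and 0.0357 (E vs. RE), and neither was called; without the second the values were 0.0119 and 0.0148.

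**Figure D3:**
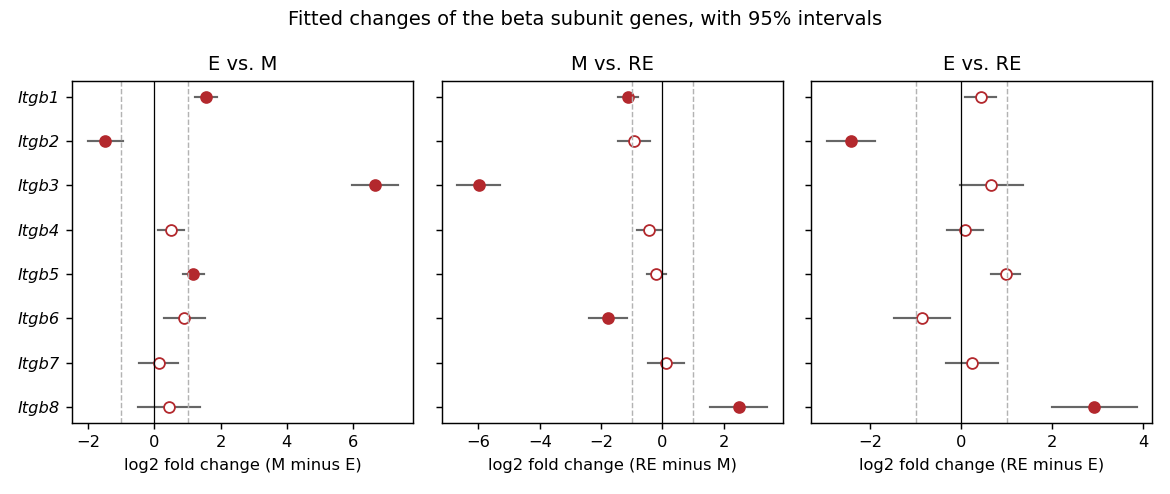
Log2 fold change (horizontal axes) of each integrin beta subunit gene (vertical axis) from limma, 1 panel per comparison, with lines for 95% intervals, filled points for called genes and dashed lines at a log2 fold change of 1 in either direction. In E vs. RE, *Itgb8* lies farthest right, at 2.93, and *Itgb2* farthest left, at −2.42, and the outlying points of *Itgb3* in the other panels have a direction that the filter on coverage fixed.

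*Itgb1*, the common subunit of collagen, laminin and fibronectin receptors, measured 784 and 843 ppm in E cells, 2473 and 2317 ppm in M cells and 1112 and 1086 ppm in RE cells. The stages did not overlap, and M cells were the highest. *Itgb1* rose 2.94-fold in E vs. M (log2 fold change 1.56 ± 0.15 SE, limma adjusted p = 0.000208) and fell by 1.12 ± 0.15 on the log2 scale in M vs. RE (limma adjusted p = 0.00117). In E vs. RE the log2 fold change was 0.43 (95% interval 0.09 to 0.78, limma adjusted p = 0.0582). The M vs. RE call was lost with library totals (−0.92, against an all-gene median of 0.18). The M vs. RE calls of *Itgb1*, *Itgb6* and *Itgb8* were each lost when any single M or RE library was left out, with limma adjusted p-values up to 0.026, 0.0297 and 0.0381, while the directions were kept. The number of calls over all genes also fell in these fits, from 1789 to between 683 and 821.

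*Itgb4*, the hemidesmosome subunit, measured 525 and 678 ppm in E cells, 792 and 913 ppm in M cells and 625 and 633 ppm in RE cells. The RE libraries lay between the E libraries. *Itgb4* was not called in any comparison, with log2 fold changes of 0.51 in E vs. M (95% interval 0.11 to 0.91, limma adjusted p = 0.0452), −0.43 in M vs. RE (−0.83 to −0.04, limma adjusted p = 0.0911) and 0.08 in E vs. RE (−0.32 to 0.47, limma adjusted p = 0.757). The last of these was −0.018 with library totals. *Itgb4* shares 7.66% of its exon bases with *B230344G16Rik*, a noncoding RNA on the opposite strand in GENCODE M21, and since the use of strand in the counting is not given, reads of these genes cannot be told apart there. The other 7 members share no exon bases with another gene in that annotation.

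Of the subunits known from leukocytes, *Itgb2* measured 44.1 and 41.0 ppm in E cells, 19.2 and 11.9 ppm in M cells and 7.61 and 8.13 ppm in RE cells. The stages did not overlap, and the RE libraries, not the M libraries, were the lowest. *Itgb2* fell by 1.49 ± 0.23 (SE) on the log2 scale in E vs. M (limma adjusted p = 0.0019) and by 2.42 ± 0.23 in E vs. RE, a level 5.35-fold lower (limma adjusted p = 0.000636). In M vs. RE the log2 fold change was −0.93 (95% interval −1.46 to −0.41, limma adjusted p = 0.0179). The E vs. M call was lost without the second M library (limma adjusted p = 0.0147), and the E vs. RE call was lost without the first RE library (0.0157) or the second (0.011). *Itgb7*, which pairs with α4 or αE on lymphocytes, measured 1.55 and 1.72 ppm in E cells, 1.60 and 2.00 ppm in M cells and 1.74 and 2.18 ppm in RE cells. It was not called, and its 95% intervals on the log2 scale were −0.45 to 0.70 (E vs. M), −0.46 to 0.69 (M vs. RE) and −0.34 to 0.81 (E vs. RE).

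Markers of other cell types were read beside these genes. *Ptprc*, which encodes the pan-leukocyte protein CD45, did not exceed 0.0781 ppm in any library. Of the alpha partners of β2, *Itgal*, *Itgam* and *Itgax* were also near the floor. They measured 0 to 0.191, 0.0463 to 0.204 and 0 to 0.216 ppm. *Itgad*, another such partner, was not tested and measured 0.1 and 0.602 ppm in E cells. It measured 0 and 0.0243 ppm in M cells and 0 in both RE libraries. Of the 12 leukocyte markers, 11 were in the table and 5 to 9 of them were at or under the floor in each library. Their summed coverage was 1.73 to 1.97 ppm in E cells, 27.9 to 32.0 ppm in M cells and 2.36 to 2.97 ppm in RE cells. Most of the sum in M cells was *Csf1r*, the receptor of CSF1, at 25.8 and 29.9 ppm. *Csf1r* and *Fcer1g*, the 2 markers with enough coverage to be tested, were both called higher in M than in E cells (8.58% of all genes). Both were called lower in RE than in M cells (4.79%). *Fcer1g* measured 0.132 and 0.138 ppm in E cells, 1.37 and 1.28 ppm in M cells and 0.412 and 0.33 ppm in RE cells. The summed markers were highest in M cells, and *Itgb2* and *Itgad* were highest in E cells. No relation between them was tested. The 7 platelet and endothelial markers summed to 8.69 to 11.5 ppm in every library, most of it *Itga2b*. *Itga2b*, the platelet partner of β3, measured 9.83 and 11.1 ppm in E cells, 5.48 and 6.44 ppm in M cells and 8.93 and 8.51 ppm in RE cells, while *Cdh5*, the endothelial cadherin, measured 0 in both E libraries, 2.33 and 2.07 ppm in M cells and 0.0423 and 0.091 ppm in RE cells. *Gp1bb*, which encodes a platelet glycoprotein, measured 0.0463 and 0 ppm in E cells, 0.386 and 0.381 ppm in M cells and 0.138 and 0.162 ppm in RE cells. *Cdh5* and *Gp1bb*, the called markers of this list, thus stood highest in M cells together with *Itgb3*, and like it passed the filter through the M libraries alone. Whether other cells had a part in the levels of *Itgb2* or *Itgb3* was not tested.

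The alpha partners were then examined as a list, which, like the lists below, was drawn up with earlier results of these data known. Of 18 alpha genes, 17 were in the table and 11 had enough coverage. From E to M cells, 5 of the 11 rose and 1 fell, with a median log2 fold change of 0.37. From M to RE cells, 2 rose and 5 fell, with a median of −1.13. RE cells had 3 genes above E cells and 0 below, with a median of 0.01. The called shares of 54.5% (E vs. M), 63.6% (M vs. RE) and 27.3% (E vs. RE) stand beside 17.0%, 12.9% and 9.37% of all genes, whose medians were 0.00, −0.02 and 0.01. *Itgav*, the partner shared by β1, β3, β5, β6 and β8, measured 49.4 and 87.8 ppm in E cells, 609.8 and 607 ppm in M cells and 210.5 and 196 ppm in RE cells. It rose in E vs. M (log2 fold change 3.21, limma adjusted p = 8.28e-05), fell in M vs. RE (−1.58, limma adjusted p = 0.00265) and was higher in RE than in E cells (1.62, limma adjusted p = 0.0035). The summed coverage of *Itgb3*, *Itgb5*, *Itgb6* and *Itgb8* was 98.0 ± 2.87 ppm per kb in E cells, 222 ± 12.6 in M cells and 191 ± 12.8 in RE cells (SD, n = 2), nearly all of it *Itgb5*.

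Among the alpha subunits that pair with β1, *Itga5* of the fibronectin receptor rose from a mean of 96.0 ppm in E cells to 1101 ppm in M cells and fell to 175 ppm in RE cells (log2 fold changes of 3.53 and −2.65, limma adjusted p = 9.79e-06 and 2.43e-05). *Itga2* of a collagen receptor measured 1.69 and 4.94 ppm in E cells, 181 and 214 ppm in M cells and 2.78 and 3.08 ppm in RE cells. Its E and RE libraries overlapped, and it rose and fell by 6.03 and −6.02 on the log2 scale (limma adjusted p = 5.78e-05 and 6.03e-05). *Itga10*, of another collagen receptor, went the other way, with a mean of 9.50 ppm in E cells, 3.72 ppm in M cells and 26.9 ppm in RE cells. It fell by 1.35 in E vs. M (limma adjusted p = 0.00332) and rose by 2.82 in M vs. RE (limma adjusted p = 0.000124). *Itga6*, the only partner of β4, measured 58.8 and 66.8 ppm in E cells, 76.5 and 73.2 ppm in M cells and 109 and 88.9 ppm in RE cells and was not called. *Itgae*, a partner of β7, measured 1.05 and 1.04 ppm in E cells, 1.13 and 1.09 ppm in M cells and 0.499 and 0.411 ppm in RE cells and was not called.

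Of the 27 genes for proteins that bind beta tails or build adhesions, 26 were tested. Of these, 11 rose and 2 fell from E to M cells, with a median log2 fold change of 0.84. From M to RE cells 1 rose and 5 fell (median −0.52), and RE cells had 2 genes above and 1 below the E cells (median 0.28). The called shares were 50% and 23.1% in the first pair of comparisons, beside 17.0% and 12.9% of all genes, and 11.5% between E and RE cells, near the 9.37% of all genes. *Tns1*, a tensin that links beta tails to actin, rose from a mean of 8.38 ppm in E cells to 51.2 ppm in M cells and fell to 12.3 ppm in RE cells (limma adjusted p = 3.74e-05 and 0.000104). The adhesion protein gene *Zyx* rose from 241 to 1053 ppm and fell to 342 ppm (limma adjusted p = 7.96e-05 and 0.000334). *Fermt1*, the epithelial kindlin that binds the NPxY motif nearest the end of the β1 tail, rose from 76.6 to 401 ppm and fell to 64.7 ppm (limma adjusted p = 0.000124 and 8.98e-05). *Vcl*, which encodes vinculin, rose from 112 to 625 ppm and was at 392 ppm in RE cells, higher than in E cells (log2 fold change 1.84, limma adjusted p = 0.00107).

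Around *Itgb4*, 7 genes of hemidesmosomes and their laminin ligands were tested. From E to M cells 3 rose, from M to RE cells 3 fell, and 0 were called between E and RE cells, with medians of 0.99, −1.04 and 0.29. The called shares were 42.9%, 42.9% and 0%, beside 17.0%, 12.9% and 9.37% of all genes. The genes called were *Lama3* and *Lamb3*, which encode laminin chains, and *Col17a1*, the hemidesmosome collagen. *Lama3* rose from a mean of 124 ppm to 566 ppm and fell to 60.5 ppm (limma adjusted p = 0.000555 and 0.000118). *Lamb3* rose from 271 to 802 ppm and fell to 391 ppm, and *Col17a1* rose from 0.837 to 3.97 ppm and fell to 0.821 ppm. Without any 1 of the M or RE libraries, fewer of the 7 were called from M to RE cells, and the calls over all genes fell as well. *Lama3*, *Lamb3* and *Col17a1* were therefore called in both steps with all libraries, and *Itgb4* and *Itga6* were called in neither.

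**Figure D4:**
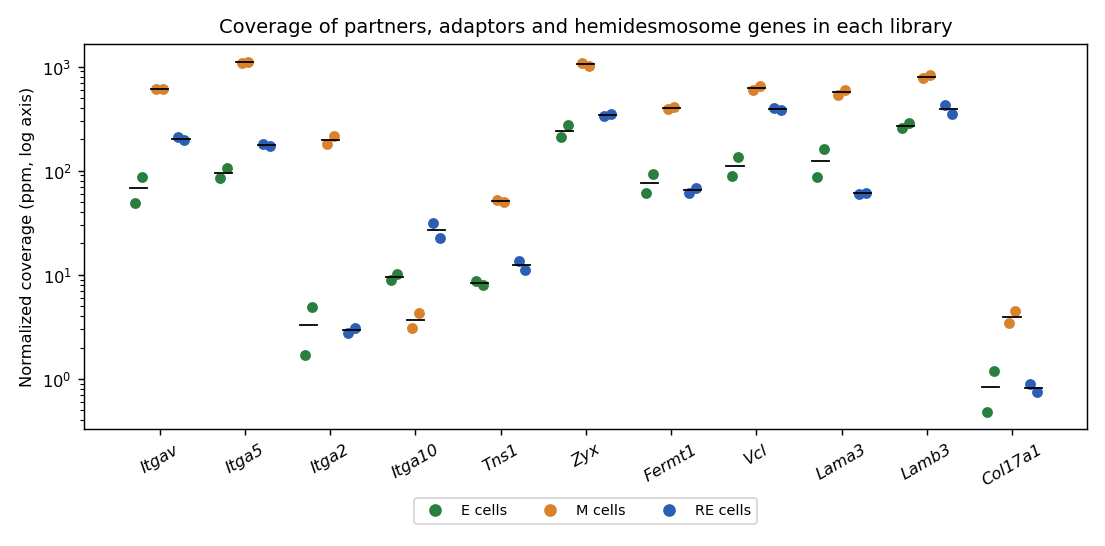
Normalized coverage (ppm, log axis) of alpha partners, adaptors and hemidesmosome genes in the E, M and RE libraries, with 1 point per library and a bar at the mean of each pair. The M libraries stand highest for every gene shown except *Itga10*, whose means are 9.50, 3.72 and 26.9 ppm in E, M and RE cells.

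For the handling of latent TGFβ, 7 of 9 genes were in the table and tested. Of these, 4 rose and 1 fell from E to M cells (median log2 fold change 1.05). From M to RE cells 1 rose and 1 fell (median −0.04), and RE cells had 3 genes above and 0 below the E cells (median 0.56). The called shares were 71.4%, 28.6% and 42.9%, beside 17.0%, 12.9% and 9.37% of all genes. *Tgfb3*, a ligand whose latent form is bound by αvβ6 and αvβ8, measured 33.4 and 31.1 ppm in E cells, 22.0 and 23.2 ppm in M cells and 74.9 and 75.7 ppm in RE cells. It was higher in RE than in M or E cells (log2 fold changes of 1.73 and 1.22, limma adjusted p = 8.29e-05 and 0.000962). *Tgfb2* measured 14.8 ppm on average in E cells, 42.0 ppm in M cells and 40.9 ppm in RE cells, and was called in E vs. M and E vs. RE (limma adjusted p = 0.000223 and 0.000734). *Ltbp1*, which tethers latent TGFβ to the matrix, rose from 228 to 628 ppm in E vs. M (limma adjusted p = 0.000688) and measured 332 ppm in RE cells.

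Of 19 matrix and cell-surface ligands, 15 were tested. Of these, 8 rose and 1 fell from E to M cells (median log2 fold change 1.72). From M to RE cells 1 rose and 4 fell (median −0.59), and RE cells had 6 genes above and 2 below the E cells (median 0.79). The called shares were 60%, 33.3% and 53.3%, beside 17.0%, 12.9% and 9.37% of all genes. The gene that fell from E to M cells and rose from M to RE cells was *Nov*, listed at 0 in both M libraries. It passed the filter through its E and RE libraries alone. The direction of these calls of *Nov* was therefore set by the filter and their size by the pseudocount. *Tnc*, which encodes tenascin-C, measured 58.7 and 115 ppm in E cells, and its mean was 13223 ppm in M cells and 244 ppm in RE cells. It rose by 7.33 and fell by 5.77 on the log2 scale (limma adjusted p = 9.34e-06 and 1.76e-05). *Ctgf* rose from a mean of 176 to 765 ppm and fell to 64.0 ppm, under its E level (log2 fold change −1.44 in E vs. RE, limma adjusted p = 0.00119). *Col1a1* and *Postn*, which encode a collagen chain and periostin, rose from 32.2 to 497 ppm and from 116 to 2258 ppm and stood at 236 and 1232 ppm in RE cells, both called in E vs. RE. When either RE library was left out, the calls between E and RE cells fell among alpha partners, adaptors, latent TGFβ genes and ligands, and over all genes as well.

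Finally, the genes whose centred log2 profiles lay nearest to those of the called members were listed, by Euclidean distance over the 6 libraries. For *Itgb1* these were *Capn2*, *Mtpn* and *Pcdh18*, at distances of 0.11, 0.12 and 0.13 log2 units. For *Itgb5* they were *Mpp5*, *Usp47* and *Ddx3x*, at 0.14, 0.15 and 0.17. The neighbours of *Itgb6* were *AC134437.3*, *Mfhas1* and *Fhdc1*, at 0.35, 0.35 and 0.36. Those of *Itgb8* were *Antxr1*, *BC060632* and *Nkd2*, at 0.31, 0.58 and 0.64. The distance grows with the range of a profile and does not rank the members by likeness to other genes. The range was 1.66 log2 units for *Itgb1*, 1.29 for *Itgb5*, 1.95 for *Itgb6* and 3.79 for *Itgb8*. *Itgb2* lay nearest to *Lamc3*, *Klra4* and *Pycr1*, at 0.57, 0.61 and 0.63. *Itgb3* lay nearest to *Tll1*, *Cdh15* and *Sema7a*, at 0.49, 0.99 and 1.09, and its own profile spanned 6.89 log2 units. These distances rest on 6 libraries and 3 stages and were not tested.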

How the data were processed

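RNA was sequenced on an Illumina Genome Analyzer from 2 biological replicates of each stage. Bowtie and TopHat2 were used by the authors to map unique reads to the mouse genome (NCBI m37), and the deposited table holds summed coverage (signal, in bases) per gene without normalization. The counting step, its annotation and its use of strand are not given in the sources used here. The edgeR test named by the authors needs read counts, so limma 3.58.1 in R 4.3.3 was fitted to log2(TMM-normalized ppm + 0.1) with all 6 libraries, group only and a trend on mean expression, on genes that reached 500 bases in 2 or more libraries. Depth was 35782513 to 47928557 reads' worth per library, and the floor was 3 reads' worth (150 bases). Positive log2 fold changes mean higher in the second-named stage. Exon lengths and coding ends came from GENCODE M21, a newer annotation than the authors' build, so no coordinates are given. The fit was tested on simulated data. The members, lists and tests were chosen with earlier results of these data known. Named genes are the 8 members, up to 4 called genes per list with the smallest adjusted p, and the 3 nearest profiles of each called member. An item that this rule covers is not reported here, and its list was counted without it. *Ptprc*, *Itga2b*, *Itga6*, *Itgad*, *Itgae*, *Itgal*, *Itgam*, *Itgax*, *Krt18*, *Krt5*, *Krt19* and *Cdh1* were added by their role after values were seen. *Nov* was added because it was listed at 0 in both M libraries. The alternatives were scaling by library totals or by median-of-ratios factors, pseudocounts of 0.025 and 1, array weights, a replicate block, models of 2 groups at a time, other filters (none, or 500 bases in every library), other thresholds (1.5-fold, or an adjusted p of 0.05), leaving out each library, and coverage not divided by length. Leaving out each library with the tested genes kept, and lengths of the longest transcript, were added after the data were seen.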

Additional observations from a re-analysis of the deposited data

How the results depend on the processing

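Over the 24 log2 fold changes of the beta subunits, 255 of 261 values under the alternatives other than leaving out a library kept their direction and their side of the threshold. The exceptions were the loss of the *Itgb5* call in E vs. M (0.88) and of the *Itgb1* call in M vs. RE (−0.92) with library totals, the gain of *Itgb5* in E vs. RE at a fold change of 1.5, and changes of sign with library totals for *Itgb7* in E vs. M (−0.16), *Itgb5* in M vs. RE (0.0065) and *Itgb4* in E vs. RE (−0.018), none of which was called. *Itgb3* could not be tested with 500 bases required in every library, or without an M library unless the tested genes were kept. The 261 values include 10 of *Itgb3* in each comparison, whose direction against M cells the filter fixed. Alternatives that changed only a threshold or the filter left every log2 fold change as it was, so no direction could turn in them. The agreement was therefore in part set in advance.

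With the replicate number as a block, 4 (E vs. M), 4 (M vs. RE) and 2 (E vs. RE) beta subunits were called, the same counts as without it. The numbers name libraries, and whether they also pair them is not given. The difference between the first and second library of a stage correlated over all genes tested at 0.27 (E and M), 0.06 (E and RE) and 0.12 (M and RE). With 2 libraries per stage, these values cannot show whether the libraries were paired. Over all genes the block gave 2431, 1830 and 1284 calls. The fit of only the groups compared gave 525 calls in E vs. RE against 1302.

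Leaving out each library, the calls ranged from 2 to 5 beta subunits in E vs. M, from 0 to 4 in M vs. RE and from 0 to 4 in E vs. RE; without the first and the second RE library, E vs. RE had 44 and 160 calls over all genes. The remaining library of a stage was then assumed to vary like the other stages. The log2 fold change turned for *Itgb8* in E vs. M (−0.046 without the first E library, up to 0.91), for *Itgb4* in E vs. RE (−0.11 without the first E library, up to 0.27), for *Itgb7* in M vs. RE (−0.0403 without the first M library and −0.0395 without the second RE library, up to 0.27) and for *Itgb7* in E vs. M (−0.030 without the second M library, up to 0.28), none of which was called. For the lists, calls in the 3 comparisons, in the same order, ranged over 3 to 6, 4 to 8 and 0 to 4 alpha partners, 5 to 14, 3 to 8 and 0 to 4 adaptors, 2 to 5, 1 to 4 and 0 to 1 hemidesmosome genes, 2 to 5, 1 to 2 and 0 to 3 latent TGFβ genes, and 7 to 10, 2 to 5 and 3 to 10 ligands. The lowest counts were reached without an M library in E vs. M, without an RE library in E vs. RE and without an M or an RE library in M vs. RE. In these fits the calls over all genes fell as well, so that the fall is not particular to the lists. At an adjusted p of 0.05, 5 alpha partners were called in E vs. RE, and with only the groups compared 0 were, beside 1 adaptor and 5 ligands. At a fold change of 1.5, 5 latent TGFβ genes were called in M vs. RE. The causes were not tested. Precision is limited by 2 libraries per stage, and for *Itgb3* outside M cells also by depth.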
